A study of Mus musculus with 18 samples.

Results

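The 10 genes described here are markers and effectors of reactive gliosis, the response of retinal glia to injury. They include the intermediate filament genes Gfap and Vim, and Lcn2, Serpina3n, Cp and A2m, which encode secreted proteins. The others are the endothelin ligand gene Edn2, the endothelin receptor gene Ednrb, and the transcription factor genes Stat3 and Cebpd. Every ATAC-seq peak that overlapped a gene from 10 kb upstream of its start to its end was taken as a member (mm10, GENCODE M21). Peaks of all libraries that overlapped were merged into regions, and a region with a peak in at least 2 libraries is called a consensus region. The windows held 25 of the 73567 consensus regions of the series, and 9 of the 10 genes had at least 1.

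Reactive gliosis is the change of Müller glia and astrocytes after damage, in which intermediate filaments build up and secreted defence proteins are induced. Cytokines of the interleukin-6 family activate Stat3, and Cebpd is a transcription factor of the acute-phase response that is itself induced by such signals. In the injured retina, photoreceptors are known to release endothelin-2, which acts on the endothelin B receptor of Müller glia.

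The 18 libraries came from whole retinas of wild-type mice, prepared eye by eye. They made up 6 groups of 3, a set of 3 groups from animals aged 3 months (3mo) and a set from animals aged 18 months (18mo). Each set held eyes kept at an intraocular pressure (IOP) of 30 mmHg for 1 h, the opposite eyes of animals so treated (contralateral controls), and eyes of untreated animals. The labels date the first 2 kinds to day 2 from the pressure. A different day is named for the ATAC-seq in the paper, and the labels were followed here. The labels' shared treatment text also mentions dasatinib, a kinase inhibitor, but no label puts a library in a drug arm. Cells were not sorted, so a change in the share of a cell type and a change within its cells cannot be told apart in these data. A start site lay in a region called in all 18 libraries for 5 of 5 rod markers and 3 of 7 Müller glia markers, but for 0 of 3 astrocyte, 0 of 6 microglia and 0 of 4 endothelial markers. The defining microglial and endothelial genes had no consensus region over a start in any group.

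Each list gives, for every peak, a −log10 q-value and a fold over local background, and its length differed between libraries, from 36011 to 66160 peaks. The shortest listed peak also split the libraries. It was 79 to 89 bp in the 6 untreated libraries, 114 to 122 bp in 5 of the others (at 3mo contralateral 2 and IOP 1, at 18mo contralateral 1 and 3 and IOP 1) and 148 to 157 bp in the remaining 7, so that kind of control and this difference in listing cannot be told apart. An absent call does not show closed chromatin, only that no peak passed the authors' threshold.

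The sequences of the regions on which the results turn are given first, 200 bases each from the reference genome (mm10, plus strand). Capitals mark matches, on either strand, to the motifs TGANTCA (AP-1), TTCNNNGAA (STAT), TTGCGCAA (C/EBP), TAATCC (Crx and Otx2) or TTGGC followed after 5 bases by GCCAA (NFI). The region 2.4 kb upstream of Edn2 (around its summit, chr4:120158664-120158863) and the stretch that ends at the Edn2 start (chr4:120161006-120161205) are shown for their values by age and IOP. The stretch that ends at the Cebpd start (chr16:15887086-15887285) and the summit of a region 11.8 kb beyond it (chr16:15898963-15899162, in an intron of Spidr) are shown for their IOP values. The stretch that ends at the Serpina3n start (chr12:104406529-104406728) is shown because its IOP comparison changed with the length of the lists.
Edn2 2.4 kb upstream: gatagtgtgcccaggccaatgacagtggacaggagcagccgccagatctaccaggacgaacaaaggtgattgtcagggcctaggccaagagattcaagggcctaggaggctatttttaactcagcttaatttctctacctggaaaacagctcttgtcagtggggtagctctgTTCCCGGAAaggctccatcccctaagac
Edn2 before the start: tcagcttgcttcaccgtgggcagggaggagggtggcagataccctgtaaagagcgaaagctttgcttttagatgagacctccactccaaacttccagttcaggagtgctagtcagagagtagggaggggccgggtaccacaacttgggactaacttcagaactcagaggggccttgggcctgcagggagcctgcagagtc
Cebpd before the start: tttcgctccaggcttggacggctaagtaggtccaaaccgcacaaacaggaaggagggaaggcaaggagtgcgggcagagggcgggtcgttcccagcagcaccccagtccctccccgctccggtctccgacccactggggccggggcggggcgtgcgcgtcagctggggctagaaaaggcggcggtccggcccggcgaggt
Cebpd 11.8 kb downstream: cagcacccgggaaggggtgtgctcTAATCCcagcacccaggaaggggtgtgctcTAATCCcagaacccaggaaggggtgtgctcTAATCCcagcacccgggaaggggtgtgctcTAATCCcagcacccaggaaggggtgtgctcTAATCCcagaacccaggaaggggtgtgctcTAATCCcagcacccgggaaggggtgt
Serpina3n before the start: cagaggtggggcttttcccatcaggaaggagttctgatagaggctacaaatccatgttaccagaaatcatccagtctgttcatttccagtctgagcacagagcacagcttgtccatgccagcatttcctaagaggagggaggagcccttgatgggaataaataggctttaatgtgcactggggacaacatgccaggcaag
Of these stretches, the Edn2 upstream region held 1 STAT match and the region beyond Cebpd held 6 Crx and Otx2 matches, while the others had none. The stretch before Cebpd was rich in CpG, with 19 in 200 bases, against 3 before Edn2 and 0 before Serpina3n. The summit of the Edn2 start region lay 142 bp inside the gene, outside the printed stretch. Around the summits of the start regions, 200 bases held 25 CpG at Cebpd, 9 at Edn2 and 2 at Serpina3n. The 6 matches beyond Cebpd were copies of the same unit, since 91.6% of that region lay in an array of a 30-base repeat that spans 524 bp, and 92.6% of its bases were the same as the base 30 positions on. In the other 32 regions in or next to the windows, that share was 28.2 to 49.2% at the best period between 5 and 100 bases. Reads from a repeat can be hard to place, and the part of this in the calls was not tested. Over the 200 bases around their summits, 3 of the 25 member regions held a STAT match, against 4.40% of 73449 consensus regions, and 4 a Crx and Otx2 match, against 15.4%. No member region held an AP-1 match (6.60% of all regions), a C/EBP match (0.0749%) or an NFI match (0.0286%).

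**Figure D1:**
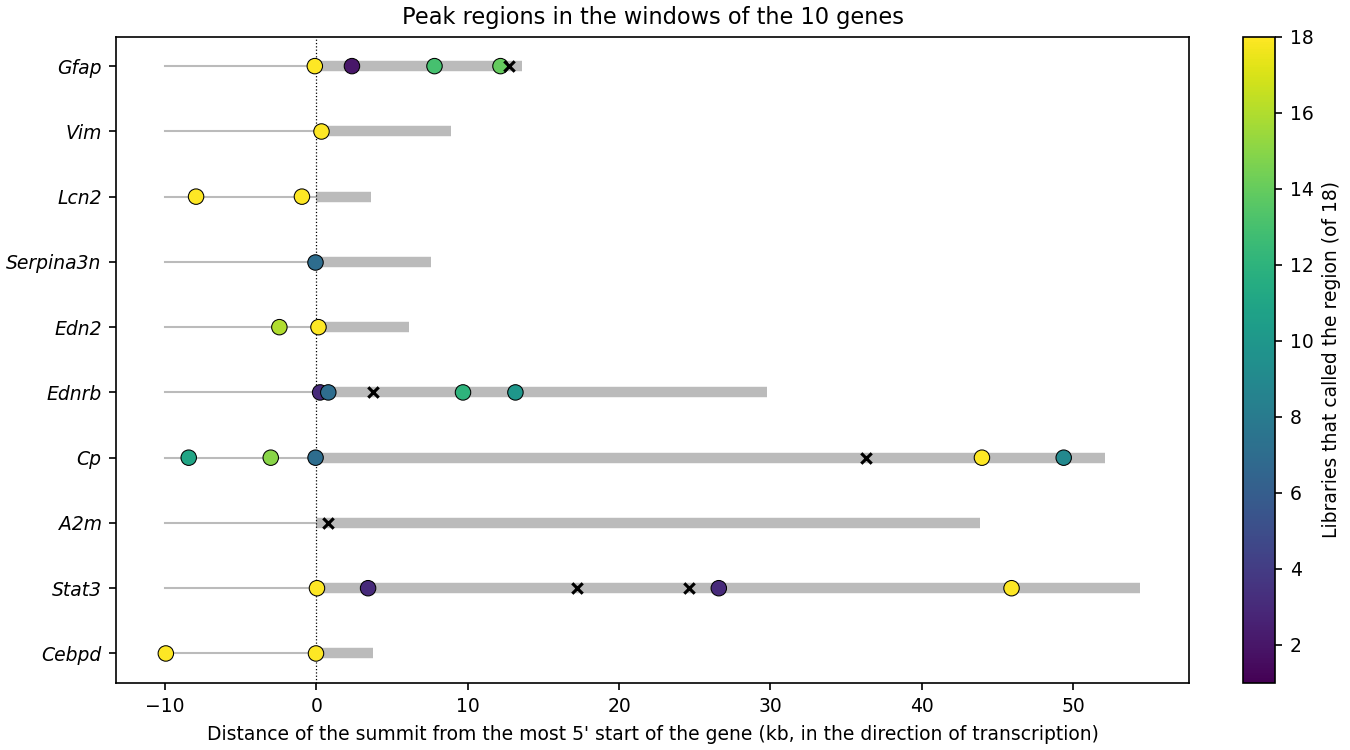
Peak regions in the windows of the 10 genes, placed by the distance of the median summit from the most upstream annotated start (kb), with the gene body as a thick bar. Colour gives how many of 18 libraries called the region and crosses are peaks of 1 library; 10 of the 25 regions were called in all 18 libraries, and A2m had 1 cross only.

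Of the 25 regions, 10 (40%) were called in all 18 libraries, against 33.64% of all consensus regions, and the other 15 were called in 2 to 16. They comprised 10 intronic, 7 promoter, 5 intergenic and 3 exonic regions. A further 6 peaks in the windows came from 1 library each. Of the genes, 5 had their most upstream annotated start in a region called in all 18 libraries (Gfap, Vim, Edn2, Stat3 and Cebpd), 3 in a region called in some (Serpina3n and Cp in 7, Ednrb in 3) and 2 in none (Lcn2 and A2m). Among 21938 protein-coding genes, the shares were 47.9% in all libraries, 7% in some and 45.1% in none. The Gfap start in question belongs to a transcript outside the basic annotation, and no consensus region covered a start of Gfap's basic transcripts, the nearest of which lay 3812 bp downstream of the summit.

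**Figure D2:**
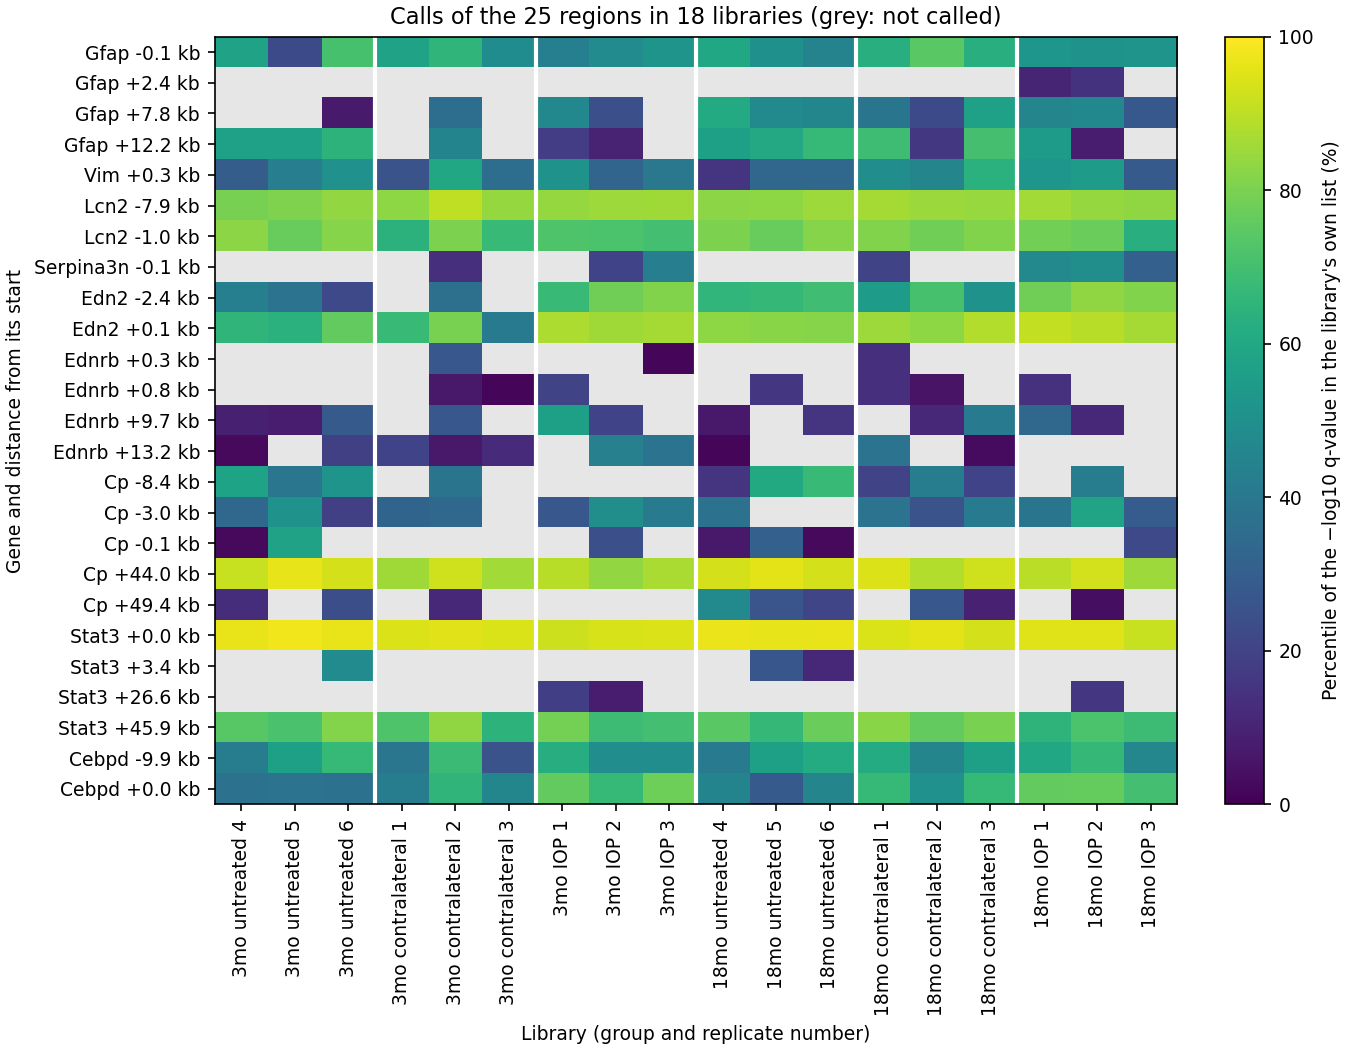
Calls of the 25 member regions (rows, by gene and distance from the start) in the 18 libraries (columns, by group). Colour is the percentile of the peak's −log10 q-value in its own list and grey marks no call, and the Serpina3n row is grey in all 6 untreated libraries.

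The peak over the Edn2 start stood higher in old than in young controls and higher after IOP, at an unadjusted threshold. The gene had a region over its start and part of an exon (chr4:120160993-120161625), called in all 18 libraries, and a second region 2.4 kb upstream (chr4:120158393-120159153). To compare the strength of a peak between lists of different length, each region called in all 18 libraries was given its percentile by −log10 q-value among the 24751 such regions of the same list, here called its position. The start region stood at positions 34.4, 35.4 and 38.3 in 3mo untreated retinas and 48.4, 46.7 and 12.1 in 3mo contralateral controls. It stood at 74.5, 74.2 and 75.9 in 3mo IOP retinas, above every 3mo control. In 18mo retinas it stood at 62.9, 63.8 and 61.4 (untreated), 63.8, 65.3 and 73.4 (contralateral) and 82.1, 78.5 and 80.7 (IOP). All 6 old controls were above all 6 young controls, and within each age all IOP libraries were above all contralateral ones.

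The mean position over controls was 65.1 ± 4.28 at 18mo and 35.9 ± 13.0 at 3mo (SD, n = 6), a difference of 29.2 (exact permutation test, two-sided, p = 0.0021645, the smallest that 6 against 6 gave). Only 14 of 24751 regions had a larger difference. The difference was 26.7 in untreated and 31.7 in contralateral libraries. For IOP, the difference over both ages was 26.0 (exact permutation test within ages, two-sided, p = 0.005, the smallest this test gave), and 58 regions had a larger one. It was 39.1 at 3mo and 12.9 at 18mo. The difference between the ages was −26.2 (permutation test with treatment labels swapped within each age, p = 0.22), and 69 of 24751 regions had a lower one. In that test 2.98% of all regions passed an unadjusted 0.05 and 0.00% the adjustment. The test is exact for no IOP effect at either age, not for an equal effect at both. It therefore cannot decide whether the ages differed. Without 3mo contralateral replicate 3 the IOP difference was 18.1. Adjusted over all ranked regions, neither exact test passed (Benjamini-Hochberg p = 0.241 for age and 0.332 for IOP), and 0.00% of regions did so in either comparison. At the smallest p stood 0.497% of regions for higher and 0.400% for lower positions with age, and 0.970% and 0.537% with IOP.

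The result for the Edn2 start depended on the measure. Ranked by fold over local background in place of the q-value, the IOP difference was −5.62 (exact permutation test, p = 0.455) and the age difference 10.0 (p = 0.121, same test). The peak itself was wider, at 540 to 581 bp in 3mo IOP against 224 to 399 bp in 3mo contralateral libraries. At 18mo the widths overlapped, at 562 to 622 bp after IOP and 393 to 593 bp in contralateral controls. Folds were 7.43 to 9.05 in 3mo IOP and 5.83 to 10.0 in 3mo contralateral libraries, and 6.57 to 8.52 and 9.49 to 10.8 at 18mo. So the q-values were higher after IOP at 3mo while the folds at the summit were not. Within the libraries of like shortest peak, 3mo IOP 1 (74.5) still stood above 3mo contralateral 2 (46.7), and 18mo IOP 1 (82.1) above 18mo contralateral 1 and 3 (63.8 and 73.4).

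The upstream Edn2 region was listed by 16 libraries, and was missing from 3mo contralateral 1 and 3 alone. Its −log10 q-value was 8.77, 7.34 and 4.76 in 3mo untreated libraries, 7.27 in the 1 contralateral library that listed it, and 20.8, 37.5 and 40.0 in 3mo IOP libraries. At 18mo it was 19.5, 23.3 and 26.6 in untreated, 13.1, 22.4 and 12.3 in contralateral and 39.2, 48.6 and 41.0 in IOP libraries. By q-value, the young controls were thus lowest and the IOP libraries of either age highest, apart from 3mo IOP 1, which lay among the old controls. The folds did not keep this order. They were 4.64 to 6.36 in 3mo untreated libraries, 4.35 in the 3mo contralateral library with a call and 4.95 to 6.36 in 3mo IOP libraries. At 18mo they were 7.53 to 7.97 in untreated, 4.35 to 6.51 in contralateral and 5.81 to 6.05 in IOP libraries. The peak was 392 to 672 bp wide in IOP libraries and 155 to 383 bp elsewhere. The calls themselves could not reach significance for IOP (exact test within ages, p = 0.4, the smallest these calls allow). With every list cut to its 36011 strongest peaks, the length of the shortest list, at 3mo all 3 IOP libraries and none of the 3 contralateral ones called the region, as for 0.432% of regions.

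Ednrb, the gene of the receptor that binds endothelins on Müller glia, showed no such order. Its most upstream start (region chr14:103844066-103844458) was listed in 3 libraries, 1 each of 3mo contralateral, 3mo IOP and 18mo contralateral. A second promoter region, 0.8 kb inside (chr14:103843328-103843864), was called in 7 libraries. The region with the highest mean percentile away from the starts lay 9.7 kb inside the gene (chr14:103834553-103834907) and was listed by 12 libraries, 1 to 3 in each group. All 4 regions were weak, with mean list percentiles of 11.2 to 22.4. The region 13.2 kb inside was called in 7 of 9 young libraries, in 3 of 6 old controls and in 0 of 3 old IOP libraries. For IOP the exact test within ages gave p = 0.2, the smallest these calls allow, so it could not decide. The number of peaks in the window was 2, 1 and 0 in 18mo IOP and 3, 2 and 2 in 18mo contralateral libraries, and these overlap.

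**Figure D3:**
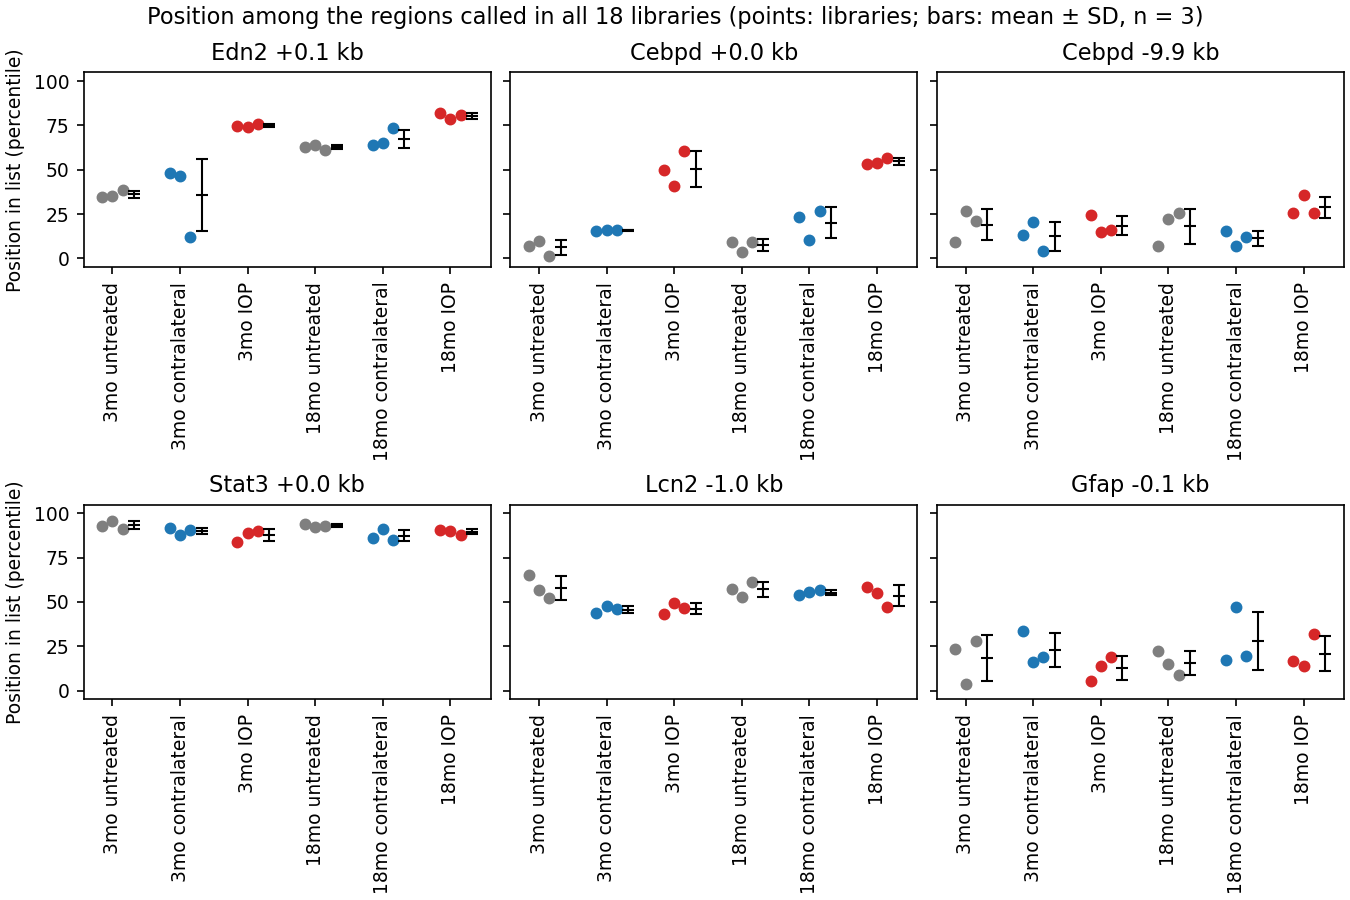
Position of 6 member regions among the 24751 regions called in all 18 libraries (percentile of the −log10 q-value, y axis) in each library (points) and group (mean ± SD, n = 3). The Edn2 start averages 35.9 in young and 65.1 in old controls, the Cebpd start is at 40.7 to 60.7 in IOP and at or under 26.8 in control libraries, and the Stat3 start stays at 83.9 to 95.8.

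Cebpd, which encodes C/EBP delta, had 2 regions in its window, and the one over its start stood higher after IOP at both ages. The start region (chr16:15886699-15888251) was at positions 49.7, 40.7 and 60.7 in 3mo IOP against 15.4, 15.7 and 16.0 in 3mo contralateral libraries. At 18mo it was at 53.5, 53.9 and 56.7 after IOP against 23.1, 10.5 and 26.8. The lowest IOP value was therefore above the highest contralateral one at both ages. The difference was 34.6 at each age and over both (exact permutation test, two-sided, p = 0.005, the smallest possible), and 24 of 24751 regions had a larger one. Adjusted over all regions the exact test did not pass (p = 0.332). Leaving out any 1 library gave 33.0 to 37.0, each at p = 0.005 in the same exact test, and ranking by fold gave 9.13 (exact permutation test, p = 0.03).

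Untreated libraries had the Cebpd start lowest of all, at 1.55 to 10.0, and age made a difference of 2.84 only (exact permutation test, p = 0.528). The 6 untreated libraries were 11.2 lower than the 6 contralateral ones (exact permutation test, p = 0.00216, adjusted p = 0.0186), where 22.9% of all ranked regions passed the adjustment in either direction. The summed peak width was 273 to 556 bp in untreated, 688 to 1331 bp in contralateral and 1249 to 1499 bp in IOP libraries. The peak was split in 7 libraries, all of them controls, and a single wide peak was listed in each of the 6 IOP libraries. The number of peaks in the window was 2 in all 6 IOP libraries and 2 to 3 in contralateral ones (exact permutation test, p = 0.05).

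The second Cebpd region, 9.9 kb upstream (chr16:15877057-15877473), stood at 14.8 to 24.6 in 3mo IOP and 3.90 to 20.4 in 3mo contralateral libraries, which overlap, and at 25.5 to 35.7 against 6.80 to 15.3 at 18mo, which do not. The IOP difference was 11.8 (exact permutation test, p = 0.02, adjusted p = 0.452) and 4.38 when ranked by fold (p = 0.545, same test). In all, 3 of the 10 ranked member regions (the Edn2 start and both Cebpd regions) were higher after IOP at an unadjusted p under 0.05 and none lower, where 4.36% of all ranked regions were higher and 3.78% lower. With age, 1 of 10 was higher, where 4.37% were higher and 3.76% lower. The median IOP difference over the 10 regions was 0.82 and over all regions 0.00135. These counts hold for ranks by q-value. Ranked by fold, 2 regions passed an unadjusted 0.05 for IOP, the Cebpd start higher and a Stat3 region 45.9 kb inside the gene lower. For age, 0 passed. The shares of all regions under ranks by fold are not given here.

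A region beyond the window of Cebpd was called in every IOP library and in no control. It lies 8 kb past the end of the gene and 11.8 kb from its start (chr16:15898908-15899478), inside an intron of Spidr, a gene of DNA repair, and Cebpd had the nearest annotated start. It was found when windows were extended by 10 kb beyond each gene, which added 8 regions in all. The calls of the other 7 allowed no unadjusted p under 0.05 for age, IOP or kind of control, so these regions could not be tested. Among them, a region 4.8 kb past the end of Edn2 (chr4:120172036-120172422) was called in 6 of 6 contralateral, 4 of 6 untreated and 3 of 6 IOP libraries (exact test within ages, p = 0.2). The region beyond Cebpd was listed by all 6 IOP libraries, by 0 of the 6 contralateral and by 0 of the 6 untreated libraries. Its −log10 q-value was 6.21, 13.3 and 13.0 at 3mo and 12.9, 11.3 and 9.45 at 18mo, and its list percentile 30.2 to 58.5. The exact test within ages gave p = 0.005, the smallest possible, and an adjusted p of 0.397. Of the 5572 regions that could reach significance in that test, 33 (0.592%) were called in all IOP and no contralateral library, and 19 of the 33 were also absent from all untreated libraries. As given above, the region lies in a 30-base repeat.

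**Figure D4:**
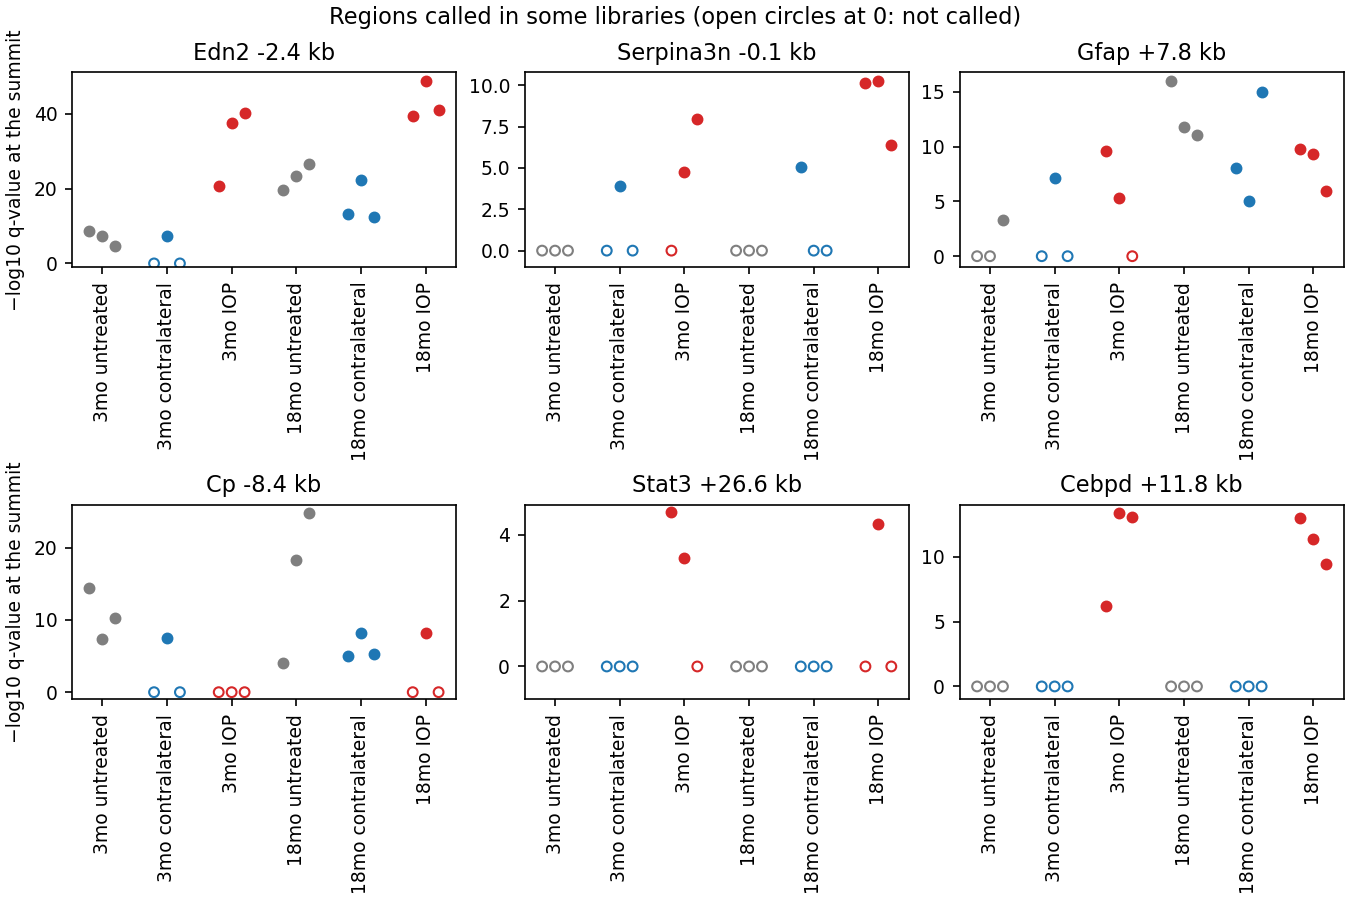
The −log10 q-value at the summit (y axis, a separate scale in each panel) of 6 regions not called everywhere, by library and group, with open circles at 0 for libraries without a call. The Edn2 upstream region is at 20.8 to 48.6 in IOP libraries, and the region beyond Cebpd has a value in all 6 IOP libraries and in none of the 12 controls.

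Stat3, the transducer of interleukin-6 family signals, was open at its start in every library and hardly varied. The start region (chr11:100938765-100940206) stood at 83.9 to 95.8 in all libraries. The age difference was −1.46 (exact permutation test, p = 0.437) and the IOP difference −0.12 (p = 0.945, same test). Untreated libraries were 4.38 higher than contralateral ones (exact permutation test, p = 0.00649, adjusted p = 0.0343). A region 45.9 kb inside the gene (chr11:100893382-100894094), the strongest away from the start, was called everywhere and had an IOP difference of −5.84 (exact permutation test, p = 0.23). Ranked by fold, that difference was −17.7 (exact permutation test, p = 0.015). A weak intronic region 26.6 kb inside (chr11:100912879-100913094) was listed by 2 young and 1 old library after IOP and by no control, at −log10 q-values of 3.30 to 4.68 (exact test within ages, p = 0.2, the smallest these calls allow). It was lost from every library in lists of equal length.

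Serpina3n, which encodes a protease inhibitor secreted by reactive astrocytes and Müller glia, had a single region, over its start (chr12:104406505-104406977). It was called in 0 of 6 untreated libraries and in 1 contralateral library of each age. After IOP 2 young and all 3 old libraries called it. The −log10 q-value was 3.93 and 5.07 in the 2 contralateral libraries, 4.76 and 7.94 in 3mo IOP and 10.1, 10.3 and 6.40 in 18mo IOP libraries. Both contralateral libraries with a call were among the 5 with short listed peaks, and their lists were the longest of their groups, at 66160 and 60755 peaks. As deposited, the IOP comparison gave p = 0.26 (exact test within ages). In lists of equal length both contralateral calls dropped out, leaving 5 of 6 IOP against 0 of 6 contralateral libraries (exact test within ages, p = 0.02), where 5.79% of the regions that could reach significance were called more often after IOP at that threshold. At 18mo it was then gained, as were 0.927% of regions.

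Lcn2, the gene of the siderophore-binding protein lipocalin-2, had 2 regions, called in all 18 libraries, and neither passed a test for age or IOP. Neither lay over its start. The nearer one was 1407 bp upstream of the basic start (chr2:32388650-32389579) and stood at 43.0 to 65.2. Its age difference was 4.37 (exact permutation test, p = 0.238) and its IOP difference −0.55 (p = 0.825, same test). The other, 7.9 kb upstream, covers the start of Ptges2, a gene of prostaglandin synthesis. In untreated libraries the nearer region was 7.08 higher and the farther 7.52 lower than in contralateral ones (exact permutation test, p = 0.0455 and p = 0.0152), and neither passed the adjustment.

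Cp, the gene of the ferroxidase ceruloplasmin, had 5 regions, of which the strongest was shared with the body of Hps3 (44.0 kb inside, chr3:20000502-20001463). It was called in all libraries, had an IOP difference of −1.82 (exact permutation test, p = 0.435) and was 6.74 higher in untreated than in contralateral libraries (p = 0.0281, same test, not past the adjustment). The start region (chr3:19956870-19957097) was called in 5 of 6 untreated, 0 of 6 contralateral and 2 of 6 IOP libraries. This was the 1 member region that passed an unadjusted 0.05 for kind of control (Fisher's exact test, p = 0.0152, adjusted p = 0.132), where 5.89% of regions were called more often and 5.55% less often in untreated libraries and 0.00% passed the adjustment. In lists of equal length 2 untreated, 0 contralateral and 2 IOP libraries called it, and the difference by kind of control was lost (Fisher's exact test, p = 0.455), as it was when a peak had to cover 50% of the region (p = 1, same test). The 5 untreated peaks over the Cp start were 84, 175, 89, 90 and 102 bp wide, and contralateral libraries listed no peak shorter than 114 bp. The part of this in the calls was not tested. A region 8.4 kb upstream (chr3:19948405-19948748) was called in 6 of 6 untreated and 4 of 6 contralateral libraries and in 1 of 6 after IOP (exact test within ages, p = 0.2, the smallest these calls allow). In lists of equal length, 5 untreated, 1 contralateral and 1 IOP library called it.

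A2m, the gene of the protease inhibitor alpha-2-macroglobulin, had no consensus region in a window of 53.9 kb, as did 24.2% of coding genes. Its single peak was in 18mo IOP replicate 2 (chr6:121635990-121636261), at list percentile 25.6.

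Of the intermediate filament genes, Vim, which Müller glia express also at rest, had 1 region, over its start (chr2:13573419-13574998), called in all 18 libraries. It was low among the regions called in every library, at positions 0.88 to 21.1, and at list percentiles of 15.1 to 63.8. It passed no test, with a difference of −0.36 by age (exact permutation test, p = 0.922) and 2.31 by IOP (p = 0.455, same test). Gfap, which Müller glia induce on injury, had 4 regions. The region at its most upstream start (chr11:102900777-102901376) was called in all libraries and stood at 3.50 to 47.1, with a difference of 1.11 by age (exact permutation test, p = 0.877) and −8.59 by IOP (p = 0.175, same test). A region 7.8 kb inside, in an exon of Gfap (chr11:102892959-102893324), was called in 6 of 6 old and 2 of 6 young controls (Fisher's exact test, p = 0.0606, the smallest these calls allow). It was called in 2 of 3 young and 3 of 3 old libraries after IOP. In lists of equal length it was called in 4 of 6 old and 0 of 6 young controls (Fisher's exact test, p = 0.0606, again the smallest the calls allow). When a peak had to cover 50% of the region, the difference between the ages was 0. The other intragenic region, 12.2 kb inside (chr11:102888501-102888942), the strongest away from the start, was called in 6 of 6 old and 4 of 6 young controls. A region 2.4 kb inside the most upstream start, which is 1359 bp upstream of the nearest basic start, was listed by 2 libraries, both 18mo IOP. It was weak, at list percentiles of 10.5 and 14.5, and was called in 0 libraries in lists of equal length.

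By age and IOP, the calls of the 25 regions passed no test. Of the member regions, 0 were gained and 0 lost after IOP at 3mo (called in 3 of 3 libraries of 1 group and 0 of 3 of the other), where 0.217% and 0.241% of all regions were. At 18mo 0 were gained and 0 lost, where 0.239% and 2.23% were. An unadjusted p under 0.05 could be reached by 2 member regions for age and by 3 for IOP, and none did so. Across all regions that could, 3.19% were called more often and 0.385% less often with age, and 1.62% and 3.43% with IOP, and 0.00% passed the adjustment in either comparison.

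The number of peaks in a window passed no test either. Summed over the 10 windows, young retinas had 20.3 ± 1.53 (untreated), 17 ± 6.08 (contralateral) and 17.3 ± 2.08 (IOP) peaks and old retinas 21.7 ± 1.53, 18.7 ± 1.15 and 19 ± 2 in the same order (SD, n = 3). None of the 9 genes tested passed an unadjusted 0.05 for age (1.58% of 16722 coding genes were higher and 0.191% lower), for IOP (0.126% higher and 1.06% lower) or for how far the IOP difference changed from 3mo to 18mo (0.305%). After adjustment 0.00% of genes passed in any of the comparisons. The largest age difference was that of Gfap, with 3 peaks in each of the 6 old controls and 1 to 4 in young ones (exact permutation test, p = 0.212). That of Gfap passed an unadjusted 0.05 in lists of equal length (1.17 peaks, exact permutation test, p = 0.0476) and when divided by list length (p = 0.0238, same test). The shares of all genes that passed under these settings are not given here.

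A wider list of 32 reactive gliosis genes had 67 consensus regions, of which 25 (37.3%) were called in all libraries. Of these genes, 22 of 32 had no region over their most upstream start, Aspg and Clcf1 among them, and 4 had 1 called in all 18, where 45.1% and 47.9% of coding genes did. After IOP, 0 of the 67 regions were gained or lost at 3mo, and 1 was gained and 0 lost at 18mo, where 0.239% and 2.23% of all regions were. The gained region lies 97.6 kb inside Fkbp5 (chr17:28419692-28420094), a glucocorticoid-induced gene, and was called in 3 of 3 old and 2 of 3 young IOP libraries, in 0 of 6 contralateral and in 1 of 6 untreated ones (exact test within ages, p = 0.02, adjusted p = 0.397). It was 1 of 4 regions of the list that could reach significance. With age 0 of 16 regions passed an unadjusted 0.05. For kind of control 4 of 16 did, all called less often in untreated libraries, as were 5.55% of all regions that could reach significance. The number of peaks was higher after IOP at an unadjusted 0.05 for 1 of 27 genes tested (Sphk1, by 1 peak, exact permutation test, p = 0.04) and lower for 0, where 0.126% and 1.06% of coding genes were, and with age for 0.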

How the data were processed

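The data were 18 ATAC-seq peak lists of mouse retina. The authors called peaks per library with MACS2 (the submitters' processing notes also name STAR 2.7.8a, HOMER, edgeR and bedtools 2.29.2) and did not pool replicates. The largest q-value listed was 0.0499. The deposited lists give each peak's position, a score derived from its q-value, the fold (ratio) of the summit over local background, and the −log10 p-value and −log10 q-value. The study's methods give a sequencing target common to all samples. The reads behind each library, trimming, duplicate removal and read shifting were not given in the sources used here, so no interval that needs a library's depth is given.

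Peaks overlapping by at least 1 bp were merged into 99792 regions, of which the 73567 with peaks in at least 2 libraries were kept. Sequences came from the same build (RefSeq, GRCm38.p6). Each region's calls were compared by Fisher's exact test (age, kind of control) or an exact conditional test stratified by age (IOP), and positions and peak counts per window with exact permutation tests (924 arrangements for age, 400 for IOP), all two-sided, with the Benjamini-Hochberg adjustment over all regions that could reach 0.05, all 24751 ranked regions or all 16722 genes. With 3 against 3 the smallest p is 0.1, so each age alone has no test. The labels give replicates as separate samples and do not tie eyes to animals, so p-values measure the spread between these samples. The labels' shared preparation text also describes crosslinking and immunoprecipitation, which the paper reserves for its histone libraries, and its ATAC-seq protocol starts from unfixed nuclei. Scripts were tested on simulated data. Python 3.11.15, numpy 2.4.6, pandas 2.3.3 and scipy 1.17.1 were used.

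All 10 genes were described, with the region over each most upstream start, the strongest region away from it (by mean percentile) and every region with an unadjusted p under 0.05. Of the 32 other gliosis genes, those with a region gained or lost after IOP and then those with no region over their start could be named, at most 8. Further regions (Gfap 2.4 and 7.8 kb, Stat3 26.6 kb, Cp 8.4 kb, Ednrb 13.2 kb inside or upstream) and Sphk1 were named after their values were seen. The genes, lists and tests were chosen with earlier results of these data known. The alternatives were lists of equal length, a q-value of 0.01, calls needing 50% of a region, single-library regions, windows from 2 kb upstream or 10 kb on both sides, ranks by fold, leaving out each library, and blocks or strata.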

Additional observations from a re-analysis of the deposited data

Results flagged for a closer look

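In groups of 6 controls of 1 age, 6 values stood far from the rest. Chance alone sets off about 1 in 20 such checks for normally spread values. That rate does not hold for numbers of peaks, where 1 peak against 0 in the other 5 controls is always set off. At 3mo, contralateral 2, the library with the longest list, had 1 Serpina3n peak against 0 in the other 5 controls and 5 Ednrb peaks against 1 to 2. At 18mo, contralateral 1 had 1 Serpina3n peak against 0. Positions that stood apart at 18mo were 47.1 for the Gfap start in contralateral 2, 21.1 for the Vim start in contralateral 3 and 73.4 for the Edn2 start in contralateral 3.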

How the results depend on the processing

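Counts of member regions gained after IOP moved from 0 to 1 at 3mo in lists of equal length (Edn2 upstream), when a peak had to cover 50% of the region (Edn2 upstream), and with windows of 10 kb on both sides (beyond Cebpd). At 18mo the count moved from 0 to 1 in lists of equal length (Serpina3n start) and with the same wider windows. Leaving out each library gave 0 to 1 gained at 3mo, and 0 to 1 gained and 0 to 1 lost at 18mo. The 50% rule gave 2 regions past the adjustment for kind of control (Gfap and Vim starts) in place of 0. Untreated peaks covered 88 to 265 bp of the 600 bp Gfap region and 280 to 594 bp of the 1580 bp Vim region, under 50% in every library. Contralateral peaks covered 284 to 567 bp and 841 to 1209 bp. This result therefore cannot be told apart from the shorter listed peaks of untreated libraries. The share of all regions that passed under this rule is not given here. Ranked by fold, the IOP difference of the Edn2 start was reversed, at −5.62. The cause of these changes was not tested. The age comparison of the Gfap region 7.8 kb inside had p = 0.0606 (Fisher's exact test) without any of 10 controls and p = 0.0152 (same test) without 3mo untreated 6 or contralateral 2, the young controls that listed it, whose removal can only lower it. Divided by the length of each list, the number of peaks after IOP was higher at an unadjusted 0.05 for 3 genes (Edn2, Serpina3n and Stat3) in place of 0. With age this held for 1 (Gfap, also in lists of equal length) in place of 0. The shares of all genes that passed under these settings are not given here, so the counts have no background. On this scale the median IOP difference of all genes was 0.0246 per 10000 peaks. That of Lcn2 was 0.0493, although it had 2 peaks in all 18 libraries. Same-numbered IOP and contralateral libraries had correlations of −0.07 to 0.10 in their deviations from group means, none over 0.1 in 6 pairs. Of the 6 IOP libraries, 3 correlated best with their own number. In groups of 3 these values cannot show whether same-numbered eyes came from the same animal. With the replicate block, 0 member regions and 0 genes passed the adjustment, as without it, the Edn2 start had p = 0.03125 for age and for IOP (exact permutation test), the Cebpd start p = 0.03125 for IOP (same test), and 2 ranked regions in place of 3 passed an unadjusted 0.05 for IOP. Stratified by age and shortest listed peak, chosen after seeing the data, IOP differences at the Edn2 and Cebpd starts kept p = 0.00926 (exact permutation test). Groups of 3, lists without reads and an adjustment over many regions limit what could be detected.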
